A study of Mus musculus with 4 samples.

Results

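The island-dense bins are the 100 stretches of 1 Mb of the mouse liver genome that held the most H4K16ac islands in the wild-type mouse. An island is a stretch of the genome in which chromatin immunoprecipitation (ChIP) reads exceeded the input reads after scaling for library size. The 19 autosomes were cut into bins of 1 Mb from coordinate 0, each island was placed by its midpoint, and ties were broken by the larger sum of wild-type ChIP reads. There were 2466 autosomal bins up to the last island of each chromosome, of which 1910 held an island of either genotype and 556 held none. The 100 dense bins held 4369 of the 26227 WT islands and 4566 of the 28377 MT islands. The bins were chosen by their number of WT islands, so that WT numbers in them are a description and carry no test.

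Acetylation of histone H4 on lysine 16 (H4K16ac) loosens the contacts between neighbouring nucleosomes and is a mark of open, transcribed chromatin. SIRT1 is an NAD+-dependent deacetylase of the sirtuin family that removes acetyl groups from histones, H4K16 among its best known sites, and from many other proteins. Acetylated regions are not spread evenly along chromosomes but lie together in gene-rich parts, with long poor stretches between them.

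H4K16ac was profiled by ChIP-Seq in liver of 1 wild-type (WT) mouse and 1 SIRT1 KO mouse, called mutant (MT), both 3 months old and of a mixed 129/FVB/Black Swiss background, to ask whether loss of SIRT1 goes with changes of this mark. Each mouse gave 1 ChIP library, made with an anti-H4K16ac antibody, and 1 input library, which is the same chromatin without immunoprecipitation, so that 4 libraries were used. By the study's methods the mutants were males that lack SIRT1 in all tissues from conception, with a targeted deletion in the gene; most such mice die before birth, and the adults are the few that survive. Liver pieces were taken in the morning and frozen without sorting of cells, so that all liver cell types are mixed, and a change in the share of a cell type cannot be told apart from a change within cells. The study also describes another pair of mice, which was not analysed here. With 1 mouse per genotype the spread between mice is not known, and differences between MT and WT mice are given without a p-value. All intervals below are 95% intervals that cover counting error only and take islands or reads as independent, which neighbouring islands may not be.

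The lists give the reads in islands, and the total reads per library are unknown. In all islands there were 2916128 ChIP reads and 1347113 input reads for MT, against 2264125 and 984817 for WT. From the input reads per covered kb in regions with islands of both lists, the MT ChIP library was estimated to be 1.05 times as deep as the WT ChIP library and the MT input library 1.09 times as deep as the WT input library. The coordinates are those of the mm8 build, as the submitters' notes give it. No gene annotation of this build was used, so the genes in these bins were not analysed here.

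The dense bins make up 4.06% of the autosomal bins and held 16.7% of the autosomal WT islands and 16.2% of the MT islands. They held on average 43.7 WT islands per bin against 9.19 in the other 2366 bins, a 4.76-fold higher number (4.60 to 4.91) that follows from the choice. The MT list, which was not used in the choice, had 45.7 islands per dense bin and 10 in the other bins, a 4.56-fold higher number (4.42 to 4.71). The same parts of the genome were thus rich in islands in both mice. WT islands covered 12.4% of the dense bins and 2.42% of the other bins, and MT islands covered 15.4% and 3.03%. The 100 bins next in rank lay between these with 8.85% covered in WT and 11.0% in MT, so that there was no break in density at the limit.

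Single dense bins ranged from 36 to 77 WT islands with a median of 41, and from 24 to 94 MT islands with a median of 45. The densest bin of both genotypes lay on chromosome 16 between 24 and 25 Mb. It held 77 WT and 94 MT islands, with 8055 WT and 11104 MT ChIP reads and 3402 WT and 5371 MT input reads, and islands covered 24.3% of it in WT and 34.1% in MT. Islands took up a larger part of this bin in the MT mouse, with more input reads as well as more ChIP reads. The bin of chromosome 12 between 80 and 81 Mb followed with 76 WT and 80 MT islands and was also the second densest in MT. The bin of chromosome 17 between 84 and 85 Mb held 70 WT and 66 MT islands, and the bin of chromosome 13 between 37 and 38 Mb held 65 of each. These 4 bins were the only dense bins with at least 65 WT islands.

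The remaining 6 of the 10 densest bins went either way between the genotypes. More islands in MT than in WT were found on chromosome 6 between 108 and 109 Mb (59 WT, 70 MT), on chromosome 13 between 36 and 37 Mb (58 WT, 73 MT) and on chromosome 10 between 127 and 128 Mb (56 WT, 71 MT). The bin of chromosome 11 between 106 and 107 Mb differed by 1 island (57 WT, 58 MT). Fewer islands in MT were found on chromosome 7 between 110 and 111 Mb (63 WT, 57 MT) and on chromosome 8 between 129 and 130 Mb (55 WT, 45 MT). In the bin of chromosome 8 the covered length was nearly the same, 237400 bp in WT and 236800 bp in MT, since the mean island was 4316 bp long in WT and 5262 bp in MT. This bin thus had fewer and longer islands in the MT mouse rather than less covered length.

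At the limit of the choice, the 3 last bins inside it held 36 WT islands each, with 38, 34 and 40 MT islands. The 3 first bins outside it held 35 WT islands each, with 31, 39 and 41 MT islands. MT numbers on both sides of the limit overlapped.

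**Figure D1:**
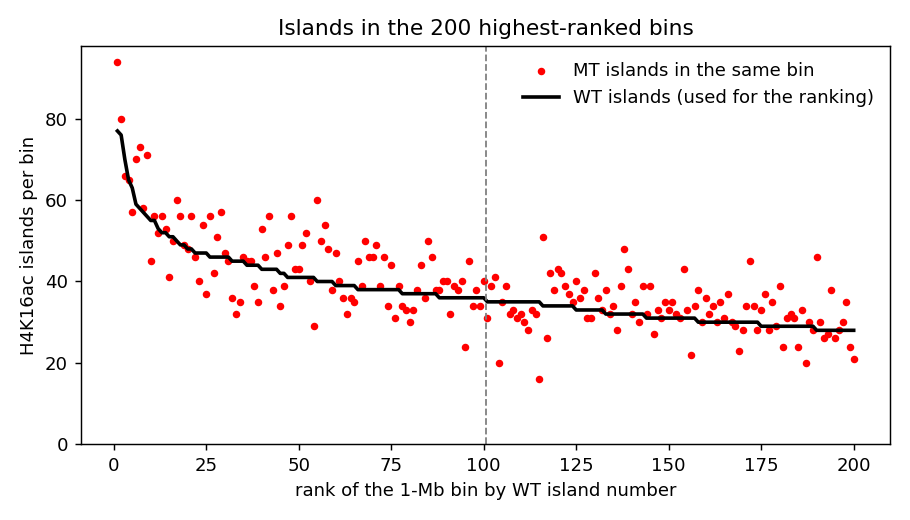
H4K16ac islands per 1-Mb bin (vertical axis, number of islands) in the 200 bins of highest rank by WT island number (horizontal axis); the black line is WT, each red point is the MT number in the same bin, and the dashed line marks the limit of the 100 dense bins. The WT line falls from 77 to 36 inside the limit without a step at it, and MT points scatter on both sides of the line, from 24 to 94 inside the limit.

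Of the 100 dense bins, 73 were also among the 100 bins with most MT islands. The overlap was 8 of the 10 densest bins of each genotype and 32 of the 50 densest. The 27 dense bins outside the 100 densest of MT had MT ranks of up to 401, and 4 of them ranked past 200. The bins that were among the 100 densest only in MT had 20 to 35 WT islands. Over all 2466 bins the numbers of MT and WT islands per bin had a Pearson correlation of 0.95, over the 2366 bins outside the dense ones of 0.93, and over the 100 dense bins alone of 0.77, where the choice narrows the range of WT numbers. Points in these correlations share the genome's mappable length and 1 pair of libraries per genotype, and neighbouring bins are not independent. By covered length in place of island number, 73 of the dense bins were among the 100 bins most covered in WT and 70 among those most covered in MT.

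**Figure D2:**
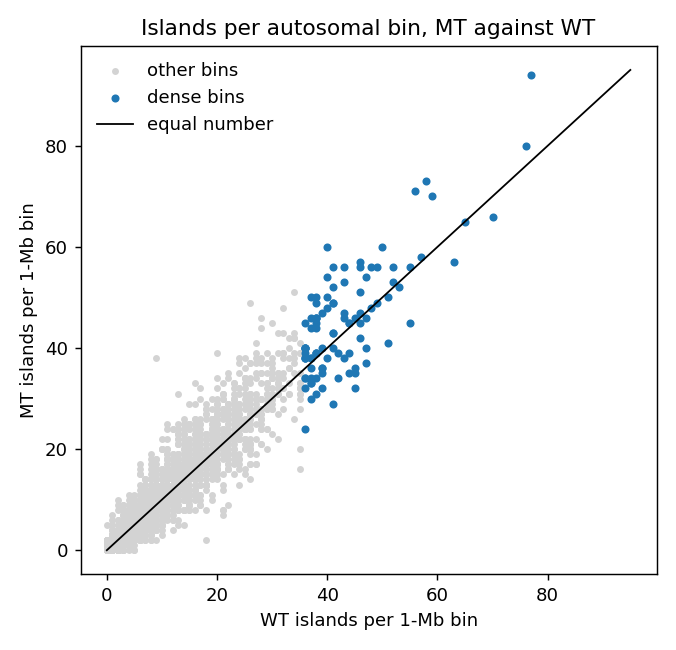
MT islands (vertical axis) against WT islands (horizontal axis) in each of the 2466 autosomal 1-Mb bins, with the 100 dense bins in blue, the other bins in grey and a line of equal number. The dense bins lie on both sides of the line, 60 above it, 37 below it and 3 on it.

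In the dense bins the MT mouse had 1.045 times as many islands as the WT mouse (4566 against 4369, 1.002 to 1.09). In the other bins the ratio was 1.09 (23669 against 21732, 1.07 to 1.11), and in the 100 next bins it was 1.06 (3309 against 3134, 1.005 to 1.11). The interval of the dense bins overlaps that of the other bins. Because bins were taken for a high WT number, the ratio depends on which list ranks them, and with the 100 bins ranked on MT islands it was 1.15 (1.104 to 1.2). With islands of at least 2-fold over input alone, and bins ranked again on the remaining WT islands, it fell below 1, to 0.923 (0.872 to 0.977), a setting that changes both the islands and the bins. With the same minimum fold and the original 100 bins kept, an alternative added after seeing the data, it was 0.974 (0.918 to 1.032), an interval that includes 1. More MT than WT islands were found in 60 of the 100 dense bins, beside a background of 51.6% of the 1910 bins with an island, and fewer in 37.

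The covered length differed more than the number. The summed length of islands in the dense bins was 15445000 bp in MT and 12350400 bp in WT, which is 1.251 times as long. The same ratio was 1.256 in the other bins and 1.241 in the next 100 bins, so that dense bins chosen on WT were close to the rest in this respect. With the 100 bins ranked on MT islands it was 1.335, so the length ratio too depends on which list ranks the bins. In single dense bins of the WT ranking the length ratio ran from 0.628 to 1.84 with a median of 1.27. MT islands covered more than WT islands in 88 dense bins, beside a background of 71.3% of bins with an island, and in 87 of the next 100 bins. In 26 of these 88 bins the MT mouse had fewer islands and yet a longer covered length, while the opposite, more islands and shorter cover, was found in 1 bin. A covered length at least 1.5 times that of WT was found in 11 of the 100 dense bins, beside a background of 26.0% of the bins with a WT island. The next 100 bins had 13 such bins, and the share in both sets lay below the background.

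Input reads are counted inside islands, so they rise with covered length and depth by construction. Within islands of the dense bins MT had 1.28 times the ChIP reads of WT (518297 against 403561, 1.28 to 1.29) and 1.36 times the input reads (240283 against 176578, 1.35 to 1.37), before any scaling for depth. The part of library depth in the number and length of islands was not tested.

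The bins with the most unequal island numbers showed the range within the dense group. The highest MT to WT ratio was 1.5, on chromosome 19 between 4 and 5 Mb, with 40 WT and 60 MT islands. This bin had 4687 WT and 6792 MT ChIP reads, 1958 WT and 2987 MT input reads and 34 shared regions, in which the ChIP density was 1.02 times that of WT. Ratios of 1.32 to 1.37 were found on chromosome 6 between 86 and 87 Mb (41 WT, 56 MT), chromosome 3 between 121 and 122 Mb (37 WT, 50 MT), chromosome 4 between 104 and 105 Mb (40 WT, 54 MT) and chromosome 8 between 114 and 115 Mb (38 WT, 50 MT). All 5 bins also had a longer covered length in MT, by 1.218 to 1.599 times.

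The lowest ratio was 0.667, on chromosome 13 between 105 and 106 Mb, with 36 WT and 24 MT islands. It also had the lowest ratio of covered length, with 94600 bp in WT and 59400 bp in MT, and its ChIP density in shared regions was 0.923 times that of WT. Ratios of 0.707 to 0.787 were found on chromosome 10 between 5 and 6 Mb (41 WT, 29 MT), chromosome 14 between 120 and 121 Mb (45 WT, 32 MT), chromosome 16 between 34 and 35 Mb (45 WT, 35 MT) and chromosome 18 between 84 and 85 Mb (47 WT, 37 MT). The bin of chromosome 16 stood apart from the other 4, since its covered length rose from 115000 bp in WT to 162800 bp in MT while the number of islands was lower. Its mean island was 2556 bp long in WT and 4651 bp in MT.

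Regions were then formed by joining islands of both lists that overlapped by at least 1 bp, and a region with islands of both was called shared. Of the 14641 autosomal shared regions, 2552 lay in dense bins and 12089 in other bins. In the dense bins 1 MT island spanned several WT islands in 337 shared regions, or 13.2% (11.9 to 14.6), compared with 8.72% (8.22 to 9.24) in the other bins. The opposite, 1 WT island across several MT islands, was found in 148 regions, or 5.80% (4.92 to 6.78), compared with 4.96% (4.58 to 5.36). The remainder were mostly pairs of 1 island each, 76.8% in the dense bins and 83.6% elsewhere. Islands lay closer in the dense bins, with a median gap of 6400 bp in WT and 5800 bp in MT against 15000 bp and 12200 bp in the other bins. Bins with many WT islands favour stretches in which WT is broken into several islands, so that the first of these shares is raised by the choice itself and is a description. With the 100 bins ranked on MT islands instead, an alternative added after seeing the data, it was 11.8% (10.6 to 13.2) against 9.00% (8.49 to 9.52) in the other bins, and the opposite share was 6.08% (5.19 to 7.07) against 4.89% (4.51 to 5.29).

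In the 1960 dense pairs of 1 MT and 1 WT island, the MT island was longer in 56.1% and the WT island in 33.6%. The same shares were 55.3% and 34.3% in the other bins. Single pairs thus lengthened in MT about as often inside dense bins as outside them.

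The ChIP density of a shared region is its ChIP reads per covered kb, divided by the depth of the library. Its median log2 change from WT to MT in the dense bins was -0.01 (-0.03 to 0.00), with quartiles of -0.19 and 0.17, and it was above 0 in 47.8% of the 2552 regions (45.9 to 49.8). In the other bins the median was -0.01 (-0.02 to 0.00). The difference between dense and other bins was 0.00 (-0.02 to 0.01) on the log2 scale, and in this difference the depth estimate cancels. No difference in the change of density between dense and other bins was thus detectable at this depth. Summed over all shared regions of the dense bins, the density ratio of MT to WT was 0.993 (0.988 to 0.997) for ChIP and 0.999 (0.992 to 1.01) for input. The input ratio is held near 1 by the scaling, which set input density equal over all autosomal and X shared regions together. The ChIP depth was derived from that same setting. The MT ChIP reads of shared regions in the dense bins, scaled for depth but not for length, were 1.15 times those of WT (1.15 to 1.16), which was the ratio in the other bins too (1.15). Under this depth estimate the read total of shared regions was therefore higher in MT, with longer islands at an almost equal density. With ChIP totals over all autosomal islands set equal instead, the median log2 density change in the dense bins was -0.31. The reading thus depends on the scaling.

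Single dense bins varied little in this measure. The log2 ChIP density change ran from -0.16 to 0.15 with an SD of 0.07 over bins, where counting error gave a median SD of 0.03. The log2 input density change ran from -0.16 to 0.14 with an SD of 0.06, where counting error gave 0.05. The spread of the ChIP change was thus larger than its counting error, while the spread of the input change, of similar size, lay closer to its own counting error. The log2 ChIP and input changes had a Pearson correlation of 0.17 over the dense bins. A ChIP density at least 1.1 times higher in MT was found in 2 dense bins, beside a background of 6.37% of the 1115 bins with at least 5 shared regions, and at least 1.1 times higher in WT in 3 dense bins, beside 9.24%. For input the counts were 2 dense bins, beside 7.71%, and 1 dense bin, beside 8.70%. The next 100 bins gave 1 and 4 for ChIP and 2 and 2 for input. The counts of dense bins lay below these backgrounds for ChIP and input alike, and counting error of the log2 ChIP change was smaller in dense bins (median SD 0.03) than in the other bins (0.06).

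The bins past this fold, named after their values were seen, were chromosome 8 between 114 and 115 Mb at 1.11 (1.06 to 1.17) and chromosome 11 between 120 and 121 Mb at 1.101 (1.06 to 1.15) for MT. For WT they were chromosome 9 between 50 and 51 Mb at 0.895 (0.857 to 0.935), chromosome 6 between 142 and 143 Mb at 0.899 (0.846 to 0.955) and chromosome 4 between 59 and 60 Mb at 0.903 (0.856 to 0.952). Their input ratios were 1.05 and 1.06 for the bins higher in MT, and 0.970, 0.928 and 1.025 for those higher in WT. The MT covered length was the longer one in all 5, by 1.14 to 1.56 times, also where the density was lower.

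**Figure D3:**
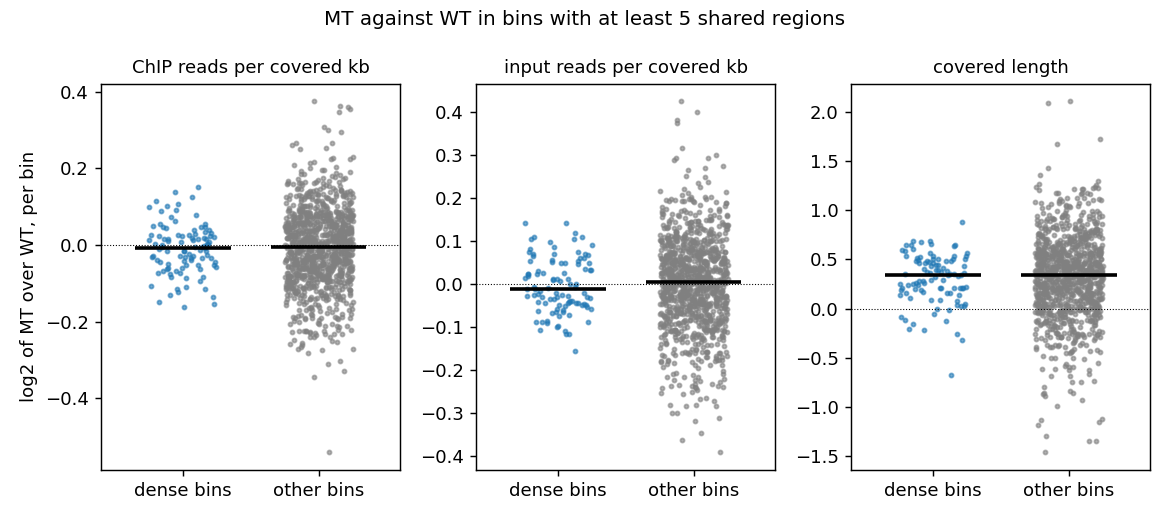
The log2 change from WT to MT (vertical axes) in ChIP reads per covered kb, input reads per covered kb and covered length, for each bin with at least 5 shared regions, split into the 100 dense bins (blue) and 1015 other bins (grey); each point is a bin, the bars are medians, and the vertical axes differ in scale. The medians of dense and other bins lie close together in all 3 plots, near 0 for both densities and above 0 for covered length, and the dense bins spread less.

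Islands of the 2 lists overlapped more often in the dense bins. Of the WT islands there, 3091 overlapped an MT island, or 70.7% (69.4 to 72.1), compared with 63.0% (62.4 to 63.6) in the other bins. In MT, 2843 islands of the dense bins overlapped the WT list, or 62.3% (60.8 to 63.7), compared with 55.4% (54.8 to 56.1). The bins were sorted by WT islands, which cover more of the dense bins, so that an MT island meets a WT island more often there by the choice, and these shares are a description. Across classes of WT island number the share rose by 1 bp of overlap. In bins with 1 to 5 WT islands it was 53.1% for WT and 46.2% for MT islands, and it rose through 57.0% and 49.5% (6 to 10), 61.9% and 54.1% (11 to 20) and 67.6% and 60.8% (21 to 35). Where the overlap had to reach 50% of each of the islands that met, the dense bins differed less from the others, with 39.4% against 38.7% of WT islands and 37.7% against 35.5% of MT islands. Under that rule the intervals of WT islands overlapped (37.9 to 40.8 and 38.1 to 39.4). Those of MT islands did not, with 36.3 to 39.2 in the dense and 34.9 to 36.2 in the other bins. The highest shares, 40.8% of WT and 38.7% of MT islands, were in bins with 21 to 35 WT islands and not in the dense bins.

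**Figure D4:**
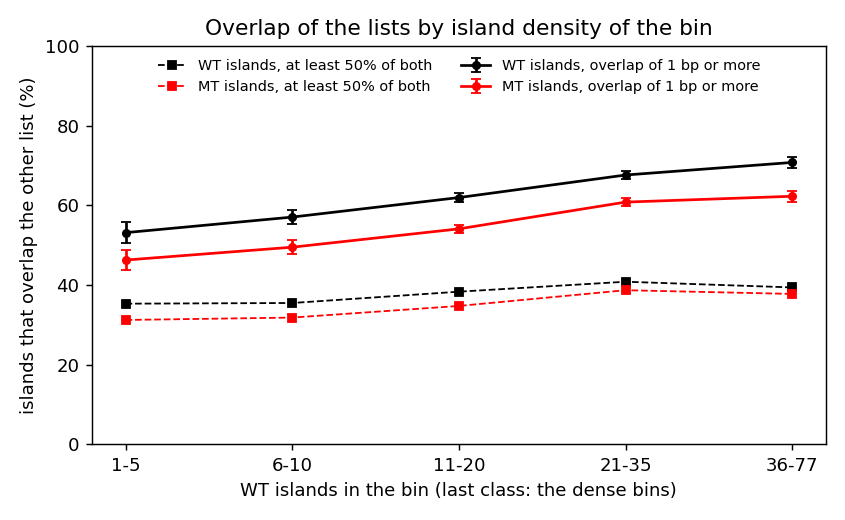
Share of islands that overlap an island of the other list (vertical axis, percent) by the number of WT islands in the bin (horizontal axis, 5 classes, the last being the 100 dense bins); circles with 95% intervals count an overlap of 1 bp or more, squares an overlap that reaches 50% of each island, WT in black and MT in red. The share by 1 bp rises to 70.7% in WT and 62.3% in MT in the dense bins, while the share by 50% of both changes less and is highest in the class of 21 to 35.

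Islands found in 1 list alone lay near islands of the other list in the dense bins. There were 1723 such MT islands and 1278 such WT islands, and their median distance to the nearest island of the other list was 4600 bp for MT and 4400 bp for WT. In the other bins these distances were 8600 bp and 9200 bp. Bins with many WT islands leave less space to the next WT island by the choice, and MT islands were dense in the same bins, so that these distances are a description. Within 5 kb of an island of the other list lay 52.9% of them in both genotypes, compared with 37.5% of MT and 36.2% of WT islands elsewhere. They were weaker and shorter than overlapping islands of the same bins, with a median fold over input of 1.89 against 2.07 in MT and 1.95 against 2.09 in WT, and a median length of 2000 bp against 3200 bp in MT and 1800 bp against 2600 bp in WT.

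Islands of the dense bins were not stronger than others. The median fold over input was 2.04 (2.02 to 2.06) in the dense and 2.08 (2.08 to 2.09) in the other bins for WT, and 1.995 (1.98 to 2.01) and 2.02 (2.01 to 2.03) for MT. A fold of at least 4 was found in 133 WT islands, or 3.04% (2.56 to 3.60), and 106 MT islands, or 2.32% (1.90 to 2.80), compared with 4.27% and 3.35% in the other bins. The intervals in the other bins were 4.00 to 4.55 for WT and 3.12 to 3.59 for MT, so that the share of high folds was lower in the dense bins of both mice beyond counting error. Very low false discovery rates, below 1e-20, were found in 699 MT islands, or 15.3% (14.3 to 16.4), against 13.2% elsewhere. In WT they were found in 468 islands, or 10.7% (9.81 to 11.7), against 10.3%. The bins next in rank had shares of 16.2% (14.9 to 17.5) in MT and 12.1% (11.0 to 13.3) in WT. These lay above the shares of the dense bins with overlapping intervals, so such rates were not particular to the dense bins. Islands of the dense bins also held more reads than those of the other bins, with a median of 82 ChIP reads against 73 in MT and 68 against 63 in WT. The medians in the bins next in rank were the same as in the dense bins, 82 in MT and 68 in WT.

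Dense bins held longer islands than the other bins, with a mean of 2827 bp against 2629 bp in WT and 3383 bp against 3031 bp in MT. The median island was 2200 bp long in WT in both kinds of bin, and 2600 bp in dense against 2400 bp in other bins in MT. The bins next in rank had means of 2823 bp in WT and 3320 bp in MT, and medians of 2200 bp and 2600 bp. These values were close to those of the dense bins, so the longer islands were not particular to them. Islands of at least 10 kb numbered 59 in WT, or 1.35% (upper bound 1.74%), against 1.01% (upper bound 1.15%) elsewhere, and 122 in MT, or 2.67% (2.22 to 3.18), against 1.77% (1.602 to 1.94). In MT the intervals did not overlap, and in WT they did. A dense bin held at most 4 such islands in WT and 6 in MT, and 59 dense bins had none in WT and 39 none in MT. Input reads per covered kb in islands were 1.015 times (1.01 to 1.02) as high in the dense as in the other bins for WT and 1.012 times (1.008 to 1.017) for MT, and ChIP reads per covered kb were 1.008 times as high in both lists.

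The longest MT island of the dense bins lay at chr8:129700001-129739400 and was 39400 bp long, with 1796 ChIP and 687 input reads and a fold of 2.48. In WT it met 7 islands, which began 3400 bp earlier and reached the same end, with 1870 ChIP and 623 input reads over a covered length of 38200 bp. A single long island in MT thus met several in WT. It lies in the bin with 55 WT and 45 MT islands described above. The MT island at chr17:86394001-86427600 was 33600 bp long and met 4 WT islands, and that at chr7:80309001-80342000 was 33000 bp long and met 4 as well. The next were 26000 bp (chr18:38990201-39016200, 2 WT islands) and 24400 bp long (chr5:64602401-64626800, 3 WT islands). All 5 longest MT islands met more than 1 WT island. Since they were picked as the longest of the MT list, the pick favours stretches that are broken in WT, and this count is a description.

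The longest WT island of the dense bins, chr17:86421201-86446000, was 24800 bp long with 993 ChIP and 374 input reads, and 2 MT islands met it. The WT island chr6:134671601-134695200 was 23600 bp long and met 1 MT island of 22800 bp. The WT island chr7:80312201-80332400 was 20200 bp long with 1219 ChIP and 293 input reads, and the MT island of 33000 bp named above spanned it, with 1653 and 514 reads. The remaining ones of the 5 were 19000 bp (chr11:121322801-121341800, 4 MT islands) and 18400 bp long (chr8:129756601-129775000, 2 MT islands). More than 1 MT island thus met the long WT island in 3 of the 5 cases, so that breaks were found in both directions. These islands were likewise picked as the longest of their own list, so this count is a description too.

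The largest folds belonged to short islands with few input reads. Among islands with at least 50 ChIP reads, the largest fold in WT was 17.3, at chr15:81699801-81700600, an island of 800 bp with 57 ChIP and only 3 input reads. The MT island there was 2200 bp long, with 98 ChIP and 16 input reads and a fold of 5.80, the fifth highest of MT. The other 4 WT islands had folds of 6.42 to 7.04 on 12 to 15 input reads, and 1 MT island at each had a fold of 2.13 to 4.07. The largest MT fold was 7.49, at chr19:4755801-4757200, with 87 ChIP and 11 input reads, where the WT island had 78 and 28 reads and a fold of 2.53. Each of these 10 islands met an island of the other list, in which the fold was lower in 9 of 10 cases. Since each was picked as the highest of its own list, these differences were not tested.

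Dense bins were found on all 19 autosomes, but not evenly. Chromosome 11 had 11 of them (9.02% of its bins), chromosome 6 had 10 (6.67%) and chromosome 16 had 9 (9.09%), while chromosomes 8 and 19 had 2 each. On chromosome 16 the dense bins held 37.3% of the WT and 35.7% of the MT islands of the chromosome, and on chromosome 11 they held 26.5% and 26.6%. On chromosome 8 they held 7.51% and 7.19%, and on chromosome 19 they held 9.40% and 11.7%. The bins of chromosome 19 include the bin with the highest MT to WT ratio of islands. Chromosome 19 had 13.2 WT islands per bin, more than the 11.3 of chromosome 16, with only 2 dense bins, so that a high number of dense bins is not the same as a high mean. In the last 10 bins of the autosomes lay 15 dense bins, where 7.71% of all bins lie, and in the first 10 bins lay 3, the first of which began at 4 Mb. How much of these end bins could be mapped was not tested, so the counts at either end are not compared.

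Most dense bins stood alone. Only 22 of them touched another, in 10 stretches, and the longest 2 stretches had 3 bins each, on chromosome 15 between 75 and 78 Mb and on chromosome 16 between 32 and 35 Mb. The densest bin formed a stretch with the bin before it, between 23 and 25 Mb. The 171 bins directly beside a dense bin that were not dense had a median of 13 WT and 15 MT islands, while the 2195 bins further off had a median of 6 in both. No WT island was found in 4.68% of the bins beside a dense bin and in 26.8% of those further off. Bins beside a dense bin were thus richer in islands than distant ones and much poorer than the dense bins. At a distance of 2 Mb before and after, the median was 10 WT islands on both sides.

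**Figure D5:**
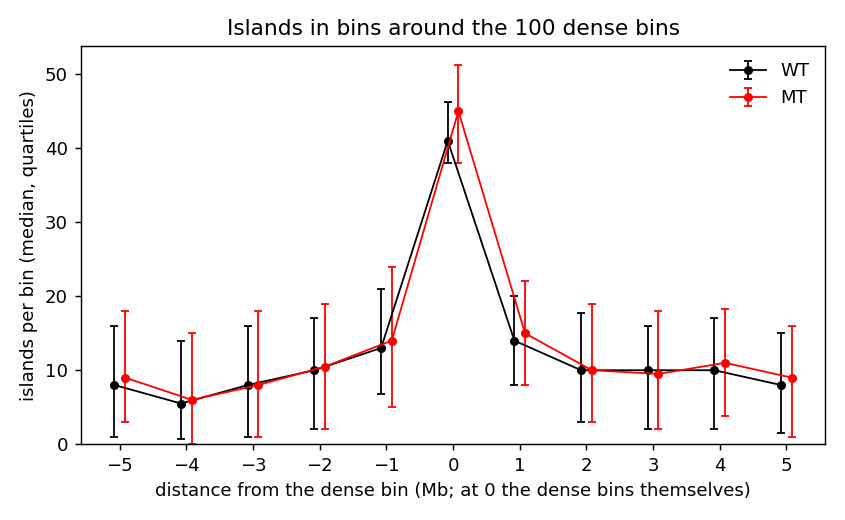
Islands per bin (vertical axis, median with quartiles over bins) at 5 Mb before to 5 Mb after a dense bin (horizontal axis, distance in Mb; at 0 the 100 dense bins themselves, elsewhere bins that are not dense), WT in black and MT in red, set slightly apart for reading. The medians fall from 41 WT and 45 MT islands at 0 to 13 or 14 WT and 14 or 15 MT islands at 1 Mb and follow each other in both genotypes.

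Within a dense bin the islands were spread over most of its length. Of the 10 stretches of 100 kb in each bin, a median of 9 held an island in both genotypes, with a range of 5 to 10, and 86 bins in WT and 87 in MT had islands in at least 8. The stretch with most islands held a median of 23.1% of the WT and 22.2% of the MT islands of its bin. The most uneven bin in WT, on chromosome 15 between 77 and 78 Mb, had 48.6% of its WT islands (18) and 39.4% of its MT islands (13) in 1 such stretch. The stretch with most WT islands was also the one with most MT islands in 52 of the 100 bins, ties included.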

How the data were processed

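H4K16ac ChIP and input libraries from liver of 1 WT and 1 MT mouse were analysed as 2 deposited lists of islands. Per the labels, the authors used Bowtie 0.12.7, SICER 1.03 and the mm8 build. The list titles give windows of 200 bp, gaps of up to 400 bp, a false discovery rate of 0.001 and the removal of duplicates. The deposited counts are the whole ChIP and input reads per island, the deposited fold is a ratio of both after scaling for library size, and the deposited p-value and false discovery rate are those of the authors' caller. The lists have no header, and columns were identified from how they relate. No comparison columns of the authors were present.

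The bins, shared regions, densities and exact 95% intervals (binomial for shares and for ratios of counts, order statistics for medians) were computed with scipy 1.17.1, pandas 2.3.3 and numpy 2.4.6 in Python 3.11.15, drawn with matplotlib 3.10.9, and tested on simulated data. The ChIP over input depth was 1.06 in MT and 1.10 in WT. Depth between genotypes was set by equal input density of shared regions, and total depth is unknown. The median MT island had 74 ChIP reads over 35 input reads, and the median WT island 63 over 27.

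Named bins were the 10 densest, the 3 on each side of the limit, and the 5 with the highest and the 5 with the lowest MT to WT island ratio. Named islands were the 5 longest and the 5 of largest fold with at least 50 ChIP reads in each list. Exceptions are marked. The choice of bins, measures and named items was made with earlier results of these data known. With 1 library per group no test between genotypes was run. Alternatives were a minimum fold of 2, a stricter false discovery rate (1e-05), bins shifted by 0.5 Mb, the 50 densest bins, ranking on MT, an overlap of 50% of both islands and scaling to equal totals. Gene annotation and sequences at hand were of another build and were not used here. Expression arrays were not analysed here.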

Additional observations from a re-analysis of the deposited data

Results flagged for a closer look

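The X chromosome was outside the autosomal bins, and its islands are given here because they enter no comparison above. The MT list held 142 islands and the WT list 126 islands on its 165 bins of 1 Mb, which is 0.861 and 0.764 islands per bin. The densest X bin held 19 MT islands, and the highest WT number in an X bin was 15, so that no X bin would have been among the 100 dense bins. The median fold over input was 2.26 in MT and 2.32 in WT. No island lay on any other chromosome.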

How the results depend on the processing

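Of 55 alternatives over 11 values, not counting those added after seeing the data, 31 stayed within the counting interval of the value reported, 23 moved outside it and 1 reversed. No paired analysis was possible because each genotype had 1 mouse. With a minimum fold of 2 and bins ranked again on the remaining WT islands, the MT to WT ratio of island number reversed to 0.923, the ratio of covered length was 1.15, overlap shares were 55.7% (WT) and 56.4% (MT), the log2 ChIP density change was -0.0294, and input per covered kb in dense over other bins was 1.009 (WT) and 1.005 (MT). With that minimum fold and the bins kept, added after seeing the data, the ratio of number was 0.974 (interval including 1), also reversed, and of length 1.196. With bins ranked on MT islands, the ratio of number was 1.15 and of length 1.33, overlap was 74.2% (WT) and 60.6% (MT), and the WT input ratio was 1.02. With the 50 densest bins, overlap was 72.5% (WT) and 64.1% (MT) and the WT input ratio 1.01. With an overlap of 50% of both islands, the shares were 39.4% and 37.7%. At the stricter false discovery rate of 1e-05, median folds were 2.30 (WT) and 2.22 (MT) and input ratios 1.003 and 1.028. With bins shifted by 0.5 Mb, input ratios were 1.02 (WT) and 1.02 (MT). The cause of these shifts was not tested. When ChIP totals in islands were set equal, the log2 density change was -0.31, by construction, since MT islands cover more length.

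The WT list chose the bins, 1 mouse per genotype gives no estimate of the spread between mice, and density can be read only where an island was called. The depth ratio takes input density in shared regions as equal in both mice. A longer MT cover holds more input reads by construction, and the share of depth in the longer cover was not tested.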
